A study of Arabidopsis thaliana with 6 samples.

Results

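The transcripts described here are those encoded in the mitochondrial genome of Arabidopsis thaliana, as counted in siliques, the seed pods. They are the rows of the count table whose locus identifier starts with ATMG and whose estimated counts summed to more than 0 over the 6 libraries. Of 120 such rows, 4 were at 0, which left 116 of the 27628 loci in the table. The groups were 3 libraries labelled shp1 shp2 mrpl1 mutant and 3 labelled WT, all from siliques. The plants grew on Murashige and Skoog medium with sucrose in long days, and mRNA was purified before library preparation. Whether these samples were grown as separate plants is not in the labels, so every p-value reflects the spread between samples alone, and that spread may be technical. They also give no accession background, no silique age and no allele name.

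Plant mitochondria keep a genome of their own, which encodes a minority of the subunits of the respiratory complexes and of ATP synthase, some proteins for cytochrome c maturation and ribosomal proteins, besides rRNAs and tRNAs. All other mitochondrial proteins, among them the polymerases, splicing factors and editing factors that act on these RNAs, are encoded in the nucleus and imported. Most stable mitochondrial transcripts of plants lack the poly(A) tail of nuclear mRNAs. In Arabidopsis a large insertion of mitochondrial DNA lies near the centromere of chromosome 2, so that many mitochondrial genes have a near-identical nuclear copy. SHP1 and SHP2 encode MADS-box proteins needed for the valve margin, where the silique opens, and MRPL1 is by name a protein of the large subunit of the mitochondrial ribosome.

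The targeted genes did not all show the genotype. SHP1 had 26.9, 31.5 and 28.4 CPM in the 3 libraries labelled shp1 shp2 mrpl1, against 42.3, 37.5 and 43.5 CPM in WT (CPM are counts on a per-million scale after TMM scaling, unless called raw). SHP2 had 106 ± 3.79 CPM in the mutant-labelled libraries and 107 ± 2.86 CPM in WT, and MRPL1, taken as AT2G42710, had 17.1 ± 1.05 CPM in the mutant-labelled libraries and 14.5 ± 1.35 CPM in WT (SD, n = 3 each). SHP1 was lower by the quasi-likelihood test of edgeR (log2 fold change -0.51, Benjamini-Hochberg adjusted p = 0.00242), while SHP2 and MRPL1 were not called (edgeR adjusted p = 0.937 and 0.172). For that reason the directions given here compare libraries by their labels and not by a genotype seen in the counts. The seed storage and oil body genes CRA1, CRU3, SESA3 and OLEO1 and the fruit genes FUL, STK and IND were detected in all libraries, the carpel gene CRC stayed near 0.1 CPM, and the root hair markers COBL9 and EXPA7 were at or near 0. All 4 seed markers were lower in the mutant-labelled libraries, between SESA3 (log2 fold change -0.25, edgeR adjusted p = 0.0389) and CRU3 (log2 fold change -0.42, edgeR adjusted p = 0.0013), and FUL was lower too (log2 fold change -0.30, edgeR adjusted p = 0.0477). Of the pollen markers, VGD1 had 13.4 ± 1.33 CPM in the mutant-labelled libraries and 8.77 ± 1.32 CPM in WT (log2 fold change 0.62, edgeR adjusted p = 0.00763), and PPME1 had 0.821 ± 0.278 CPM in the mutant-labelled libraries and 0.372 ± 0.0681 CPM in WT (edgeR adjusted p = 0.0939). The part of seed or pollen content in the results below was not tested.

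The identifiers are not part of the RefSeq annotation of TAIR10.1, which names mitochondrial genes by symbol. Notes on chromosome 2 genes in that annotation named 50 of the 116 members and tied 14 of them to a RefSeq mitochondrial gene. The 14 were atp1, atp6, atp8 and atp9 of ATP synthase, cox3 of complex IV, cob of complex III, parts of nad1 and nad3 of complex I, ccmC and ccmFC of cytochrome c maturation, and rpl5, rps4, rps7 and rps12 of the mitochondrial ribosome. The other 36 were named without such a tie, some of them only as the source of a pseudogene and with no description. The 66 not named are given by identifier alone. A chromosome 2 partner in the table was named for 42 members.

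Sequence identity between the 2 genomes was measured first, because it bears on every value below. Of 33 RefSeq mitochondrial coding regions, 16 occurred unchanged on chromosome 2. Among nuclear loci, 91 shared at least 50% of their 50-base windows with the mitochondrial genome of 367808 bases, 90 of them on chromosome 2, and in 30 of the 91 every window was shared. The coding sequence of atp9, subunit 9 of the membrane-embedded rotor of ATP synthase, is shown because this gene was called both as its own row and summed with its chromosome 2 copy. It lies at chrMT:270961-271185 on the minus strand of TAIR10.1, and the same letters stand at chr2:3251856-3252080, also on the minus strand, inside the gene AT2G07671.
atp9, both places: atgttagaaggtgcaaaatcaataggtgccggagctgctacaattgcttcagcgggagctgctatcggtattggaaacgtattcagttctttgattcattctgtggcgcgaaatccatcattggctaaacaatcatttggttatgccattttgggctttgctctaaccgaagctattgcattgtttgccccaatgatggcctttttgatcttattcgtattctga
The start of cox3, which encodes a core subunit of cytochrome c oxidase, is shown because its counts were divided unevenly between the 2 genomes. This stretch lies at chrMT:330534-330773 and, unchanged, at chr2:3312412-3312651 inside AT2G07687, on the minus strand in both.
cox3, first bases, both places: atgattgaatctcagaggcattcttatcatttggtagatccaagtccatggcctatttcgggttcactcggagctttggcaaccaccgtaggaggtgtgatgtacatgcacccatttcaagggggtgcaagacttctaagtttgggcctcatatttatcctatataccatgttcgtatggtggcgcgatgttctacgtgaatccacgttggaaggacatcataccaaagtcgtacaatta
A pair that differs at single bases is shown for contrast. AT2G07715, the partner row of ATMG00560, aligned to the mitochondrial rpl2 gene with 3 mismatches in 956 bases. Of its 50-base windows 88.4% occur in the mitochondrial genome, so most of it cannot be told apart either. The stretch at chrMT:221694-221843 (minus strand) and its copy at chr2:3411947-3412096 (plus strand) differ at the base in capitals, G40A, counted from the 5′ end of the stretch with the mitochondrial base first.
rpl2, mitochondrial genome: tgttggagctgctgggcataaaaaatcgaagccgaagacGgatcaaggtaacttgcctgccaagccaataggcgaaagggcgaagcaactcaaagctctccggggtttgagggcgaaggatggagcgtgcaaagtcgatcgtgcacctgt
rpl2, AT2G07715 on chromosome 2: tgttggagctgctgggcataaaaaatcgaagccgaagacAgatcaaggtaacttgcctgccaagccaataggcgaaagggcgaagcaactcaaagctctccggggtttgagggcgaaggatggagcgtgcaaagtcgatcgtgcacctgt
The sequences were read from the RefSeq genome TAIR10.1. Identical stretches such as those of atp9 and cox3 cannot be assigned to one genome by their letters.

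The deposited values bore the mark of such sharing. A value that was not whole occurred in 48 of the 116 members. In 15 groups of rows, holding 17 members, a mitochondrial row and a chromosome 2 row carried the same non-whole values in every library, among them rps12, rps4, rps7, rpl5 and atp8. The 2 rows of such a gene are not separate measurements. Elsewhere the split was uneven. The row of cob, which encodes apocytochrome b of complex III, was listed at or near 0 in all libraries, while its partner AT2G07727, identical throughout, held 83, 27 and 19 counts in the mutant-labelled libraries, against 19.4, 38 and 30 in WT. The row of nad3, a membrane subunit of complex I, likewise stayed near 0, and the pair of that row and AT2G07751 held 20, 6 and 18 counts in the mutant-labelled libraries, against 13, 1 and 5 in WT. For such genes the mitochondrial row by itself says nothing about the transcript, and pairs were also summed.

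Mitochondrial genome transcripts were scarce in every library. The libraries held 17857873 to 21603816 estimated counts. The 116 members took 160, 99.6 and 101 raw CPM, scaled by the library total alone, in the mutant-labelled libraries, against 73.2, 102 and 83.5 raw CPM in WT. The groups overlapped, since WT replicate 2 lay above 2 of the 3 mutant-labelled libraries. The 95% Wilson intervals for these shares were no wider than 154 to 165 raw CPM in mutant-labelled replicate 1, but they cover counting error only, and the libraries of a group differed by more. The group means were 120 ± 34.3 raw CPM in the mutant-labelled libraries and 86.2 ± 14.6 raw CPM in WT (SD, n = 3 each), a difference of 33.8 raw CPM that came to 14.0 without mutant-labelled replicate 1. In bulk siliques, fewer cells of a type and less RNA per cell cannot be told apart.

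One row, ATMG00030, carried 17.0% to 31.3% of the mitochondrial counts of a library and varied widely within both groups. It held 1029, 363 and 426 counts in the mutant-labelled libraries, against 260, 556 and 356 in WT, and the groups overlapped (log2 fold change 0.66, SE 0.51; edgeR adjusted p = 0.539). Without it the members held 110, 79.3 and 80.6 raw CPM in the mutant-labelled libraries, against 60.8, 76.3 and 65.6 raw CPM in WT. On this measure all 3 mutant-labelled libraries lay above all 3 WT libraries, the nearest by 79.3 against 76.3 raw CPM. Chloroplast genome rows held 471, 206 and 189 raw CPM in the mutant-labelled libraries, against 121, 240 and 185 raw CPM in WT. Mutant-labelled replicate 1 was highest and WT replicate 1 lowest for both organelles. The chloroplast share moved with the mitochondrial one, and its part in the results was not tested.

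**Figure D1:**
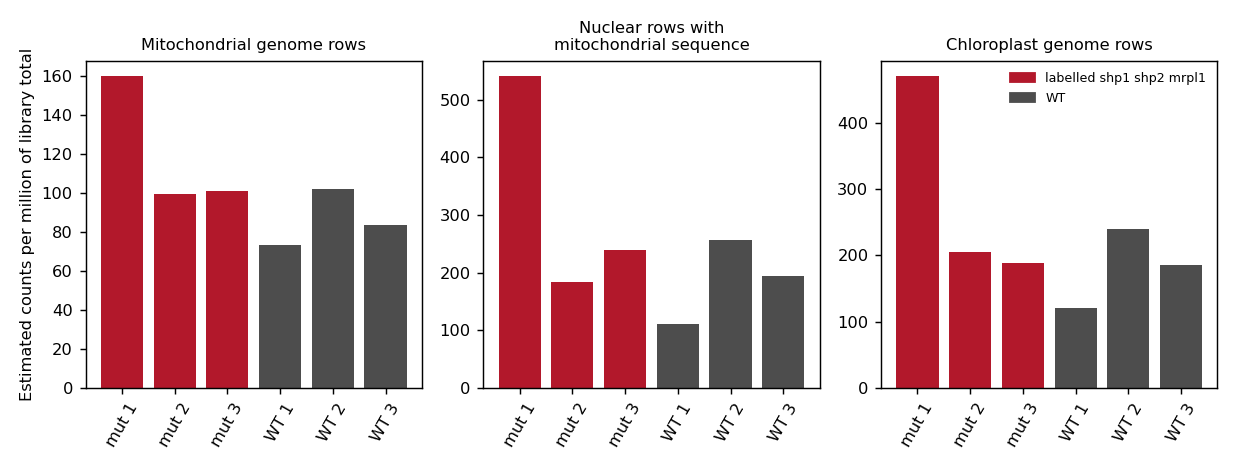
Raw CPM, as estimated counts scaled by the library total alone, in mitochondrial genome rows (left), nuclear rows that share at least 50% of their 50-base windows with the mitochondrial genome (middle) and chloroplast genome rows (right), 1 bar per library; mut 1 to 3 are the libraries labelled shp1 shp2 mrpl1. In each panel mut 1 is highest and WT 1 lowest, and the groups overlap.

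The nuclear rows with mitochondrial sequence held more counts than the mitochondrial rows themselves. They took 540, 184 and 239 raw CPM in the mutant-labelled libraries, against 111, 257 and 195 raw CPM in WT. Most of this lay in AT2G07706, with 10168, 2703 and 4254 counts in the mutant-labelled libraries, against 1655, 4853 and 3299 in WT. By itself that locus had 1.08 to 3.10 times the counts of all 116 members in a library. The groups overlapped, and AT2G07706 was not called (log2 fold change 0.82, SE 0.66; edgeR adjusted p = 0.557). Its transcript has 13 exons on chromosome 2 and aligned in 10 blocks of 2414 bases in all, with 2 mismatches, to mitochondrial bases 247682 to 252321, where RefSeq annotates only the tRNA gene tRNAI(CAT). Its closest mitochondrial match by the reference notes, ATMG00470, is described as an unknown protein. Without AT2G07706 the nuclear rows held 45.8, 32.6 and 35.7 raw CPM in the mutant-labelled libraries, against 31.8, 32.0 and 29.6 raw CPM in WT. The groups did not overlap, but the nearest libraries stood at 32.6 against 32.0 raw CPM. Some of these rows hold shares of reads divided with members, so the sum is not separate from that of the members.

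Of the 116 members, 36 passed the expression filter, with 58 to 2990 counts summed over the 6 libraries (median 224.5) and 90.2% of all mitochondrial counts. The other 80 had at most 55 counts (median 11) and were not tested. Of all 20827 loci tested, 4.89% were called higher and 4.07% lower in libraries labelled shp1 shp2 mrpl1, 8.95% in either direction (edgeR, Benjamini-Hochberg adjusted p under 0.05). Among the 36 members 2 were called higher, 5.56%, and 0 lower, and DESeq2 gave the same counts. At an unadjusted p under 0.05 edgeR had 6 members higher and 0 lower, 16.7% against 21.8% of all loci. The share called was near that of all loci.

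The sign of the change was less even than in the whole table. Of the 36, 30 had a positive log2 fold change and 6 a negative one, with a median of 0.38 and a range of -0.31 to 1.31, while 49.7% of all loci were positive, with a median of -0.00. Groups that did not overlap occurred in 4 members, all higher (11.1%, against 13.6% of all loci), and in 0 lower (against 12.3%). A single library carried much of this pattern. Mutant-labelled replicate 1 had the highest level of the 6 libraries in 24 of the 36 members, and WT replicate 1 had the lowest in 16. Centred on each member's mean over the 6 libraries, the median level on the log2(CPM + 0.1) scale was 0.46, 0.00 and 0.04 in the mutant-labelled libraries, against -0.34, 0.11 and -0.15 in WT. The median log2 fold change came to 0.15 without mutant-labelled replicate 1 and to 0.07 without both replicates 1.

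**Figure D2:**
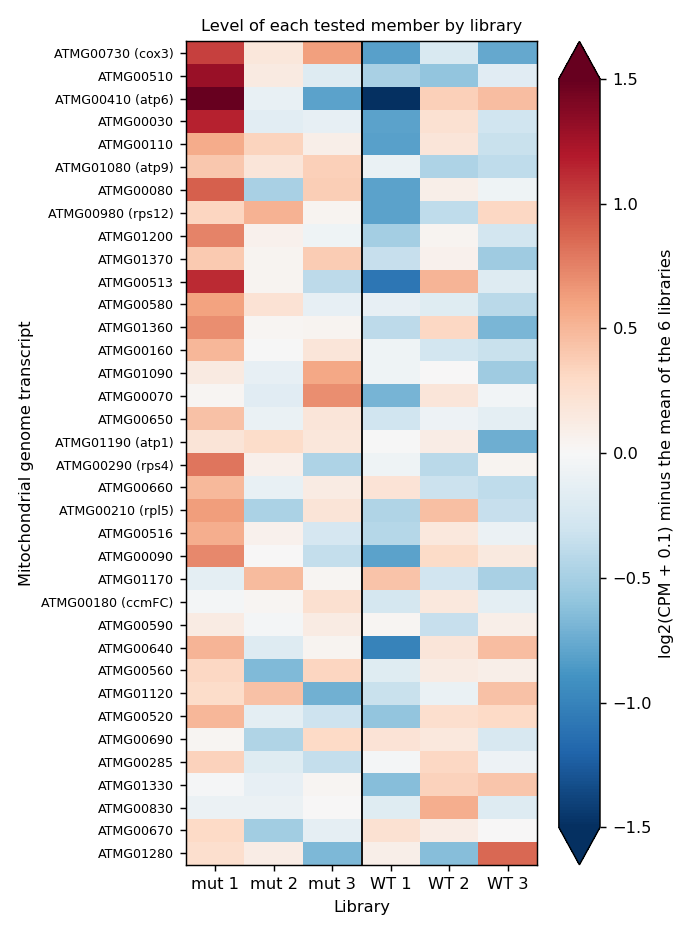
Level of each of the 36 tested members in each library, as log2(CPM + 0.1) minus the member's mean over the 6 libraries, ordered by log2 fold change; mut 1 to 3 are the libraries labelled shp1 shp2 mrpl1. Red cells gather in mut 1, the highest library in 24 of 36 members, and blue cells in WT 1, the lowest in 16.

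**Figure D3:**
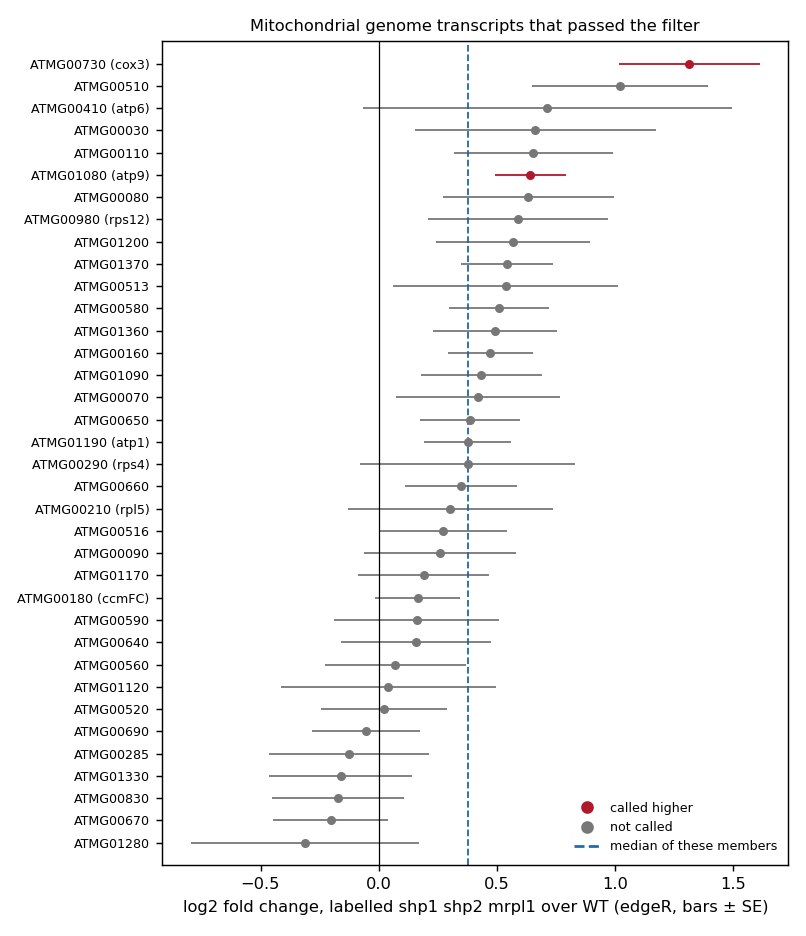
Log2 fold change of the 36 tested members, libraries labelled shp1 shp2 mrpl1 over WT, with bars of ± 1 SE from edgeR. The 2 members called higher, cox3 and atp9, are red, and the dashed line marks the median of 0.38.

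Members tied to RefSeq genes of ATP synthase, which makes ATP from the proton gradient of the inner membrane, gave 1 call among 3 tested of 4. The row of atp9 (ATMG01080) held 126, 94.7 and 123 counts in the mutant-labelled libraries, against 86.8, 70.1 and 68.8 in WT. All 3 mutant-labelled libraries lay above all 3 WT libraries. It rose by 0.64 on the log2 scale (SE 0.15; edgeR adjusted p = 0.0169). Summed with AT2G07671, atp9 stood at 6.91, 6.41 and 7.17 CPM in the mutant-labelled libraries, against 5.07, 4.54 and 4.14 CPM in WT, and the sum rose too (log2 fold change 0.58, SE 0.13; edgeR adjusted p = 0.015). The call on atp9 thus held for the sum of both loci. It was lost without mutant-labelled replicate 3, WT replicate 2 or WT replicate 3 (log2 fold changes 0.62, 0.56 and 0.61, edgeR adjusted p 0.0824, 0.0777 and 0.0765), and relative to the mitochondrial counts alone its change was 0.21 on the log2 scale (edgeR adjusted p = 0.618). ATMG01090 was described as ATP synthase 9 but not tied to a RefSeq gene. That row had 1.92, 1.59 and 2.63 CPM in the mutant-labelled libraries, against 1.66, 1.73 and 1.16 CPM in WT. Its groups overlapped and it was not called (log2 fold change 0.43, SE 0.26, edgeR adjusted p = 0.362).

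The row of atp1 (ATMG01190), the alpha subunit of the catalytic head, had 6.35, 6.72 and 6.23 CPM in the mutant-labelled libraries, against 5.50, 5.99 and 3.28 CPM in WT. The groups did not overlap, but the log2 fold change of 0.38 (SE 0.18) was not called (edgeR adjusted p = 0.260). Summed with AT2G07698, atp1 stood at 12.2, 10.6 and 9.47 CPM in the mutant-labelled libraries, against 8.83, 8.25 and 7.41 CPM in WT. The summed groups did not overlap either, and the change was 0.40 on the log2 scale (SE 0.12; edgeR adjusted p = 0.0654). The non-whole values of ATMG01190, AT2G07698 and ATMG01200 added up to whole counts in every library. The atp1 sum leaves out ATMG01200 and so a part of the divided reads. RefSeq annotates atp6, a membrane subunit of the proton channel, at 2 places of the mitochondrial genome. Its row ATMG00410 ranged widely within each group, with 68.0, 16.4 and 10.8 counts in the mutant-labelled libraries, against 5.43, 27.4 and 27.4 in WT (log2 fold change 0.71, SE 0.78; edgeR adjusted p = 0.660). ATMG01170, known by identifier alone, held 36.0, 49.3 and 41.1 counts in the mutant-labelled libraries, against 53.6, 33.2 and 26.6 in WT. The values of ATMG00410, ATMG01170 and AT2G07741 added up to whole counts in every library. The ATMG00410 row thus holds a share of divided reads, and its spread is not that of a separate measurement. The atp8 row stayed below the filter, and its pair sum had 0.461 ± 0.114 CPM in the mutant-labelled libraries and 0.577 ± 0.279 CPM in WT (SD, n = 3 each).

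In complex IV, cytochrome c oxidase, the cox3 row (ATMG00730) held 55.1, 25.8 and 41.0 counts in the mutant-labelled libraries, against 13.7, 22.4 and 13.8 in WT. The groups did not overlap, and the row rose by 1.31 on the log2 scale, the largest change among the 36 tested members (SE 0.30; edgeR adjusted p = 0.0141). The partner AT2G07687, identical throughout, held 18.9, 5.21 and 13.0 counts in the mutant-labelled libraries, against 27.3, 17.6 and 10.2 in WT, and its log2 fold change of -0.53 was not called (edgeR adjusted p = 0.532). The mitochondrial row thus took 74.3%, 83.9% and 75.9% of the pair's rounded counts in the mutant-labelled libraries, against 34.1%, 55.0% and 58.3% in WT. The 95% Wilson intervals ran as low as 63.1% in the mutant-labelled libraries and as high as 75.5% in WT. They treat rounded parts of divided reads as reads told apart by sequence. As the loci are identical, the intervals do not measure the uncertainty of the share. The values of ATMG00730 and AT2G07687 added up to whole counts in every library, so the rise of the cox3 row is that of a share of divided reads. Summed over the pair, cox3 stood at 3.55, 1.70 and 2.58 CPM in the mutant-labelled libraries, against 2.00, 1.87 and 1.21 CPM in WT, and the groups overlapped. The sum was not called (log2 fold change 0.63, SE 0.28; edgeR adjusted p = 0.207), so the call on cox3 held for the mitochondrial row and not for the sum of both loci. The call of the cox3 row was also lost without mutant-labelled replicate 3 or WT replicate 3 (log2 fold changes 1.34 and 1.23, edgeR adjusted p 0.0535 and 0.0736), and relative to the mitochondrial counts alone (0.88, edgeR adjusted p = 0.280).

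**Figure D4:**
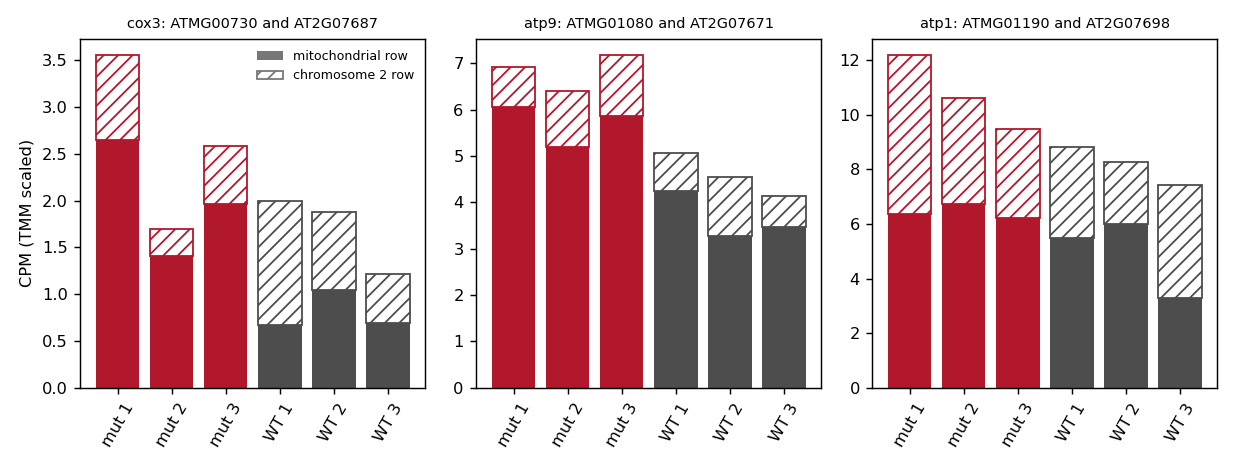
CPM of cox3, atp9 and atp1 in each library, stacked as the mitochondrial row (filled) and its chromosome 2 partner (hatched), red for the libraries labelled shp1 shp2 mrpl1 (mut) and grey for WT. For cox3 the filled part differs between groups while the stacked heights overlap; for atp9 and atp1 the stacked heights do not overlap.

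Complexes I and III gave no call, but no mitochondrial row tied to a RefSeq gene of theirs passed the filter. The tests given here are of pair sums, of chromosome 2 rows and of ATMG00590, a member not tied to a gene. ATMG00590 was described as a cytochrome b/b6 protein and held the same values as AT2G07718, which aligned over nad4 of complex I. It was not called (log2 fold change 0.16, SE 0.35, edgeR adjusted p = 0.838). Other genes of these complexes may lie among the rows known by identifier or description alone. As the mitochondrial rows of nad3 and cob were nearly empty, only the pair sums describe them. The nad3 pair had 0.716 ± 0.339 CPM in the mutant-labelled libraries and 0.311 ± 0.298 CPM in WT (SD, n = 3 each; log2 fold change 1.22, SE 0.60; edgeR adjusted p = 0.259). The cob pair had 2.12 ± 1.63 CPM in the mutant-labelled libraries and 1.41 ± 0.425 CPM in WT (SD, n = 3 each; log2 fold change 0.60, SE 0.50; edgeR adjusted p = 0.543). Both pairs overlapped between groups, with mutant-labelled replicate 1 highest. The row ATMG01275, described as a part of nad1, another membrane subunit of complex I, held 10.6, 7 and 2 counts in the mutant-labelled libraries, against 1, 2 and 4 in WT. AT2G07689 shares its sequence with nad2, a further complex I gene, and held 29, 10 and 18 counts in the mutant-labelled libraries, against 9, 9 and 16 in WT (log2 fold change 0.77, edgeR adjusted p = 0.303). Further tested chromosome 2 rows, aligned to nad7, nad1 and nad4, had smaller changes and were not called. They were AT2G07641 at nad7 (log2 fold change 0.32, edgeR adjusted p = 0.600), AT2G07655 at nad1 (0.098, edgeR adjusted p = 0.906) and AT2G07718 at nad4 (0.16, edgeR adjusted p = 0.838).

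Cytochrome c maturation and ribosomal protein genes gave no call either. The ccmFC row (ATMG00180), for a protein of the heme attachment machinery, had 2.96, 3.07 and 3.58 CPM in the mutant-labelled libraries, against 2.49, 3.37 and 2.71 CPM in WT (log2 fold change 0.16, SE 0.18; edgeR adjusted p = 0.651). These levels lay close together and overlapped. The ccmC row (ATMG00900), for a heme-handling protein of the same pathway, held 1.33 to 3.15 counts in the mutant-labelled libraries and 2.34 to 3.50 in WT, below the filter. The rps12 row (ATMG00980), a small-subunit ribosomal protein, had 0.863, 1.01 and 0.693 CPM in the mutant-labelled libraries, against 0.341, 0.492 and 0.858 CPM in WT (log2 fold change 0.59, SE 0.38; edgeR adjusted p = 0.410). WT replicate 3 lay inside the mutant-labelled range, and WT replicates 1 and 2 below it. The rpl5 row (ATMG00210), a large-subunit protein, held 19.5, 7 and 14 counts in the mutant-labelled libraries, against 8, 17.5 and 8.5 in WT (log2 fold change 0.30, SE 0.43). The rps4 row (ATMG00290), another small-subunit protein, had a log2 fold change of 0.38 (SE 0.45), and rps7 was below the filter. Since rps12, rpl5 and rps4 had the same values in their chromosome 2 rows, each value here is that of 1 of 2 equal rows.

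Levels between genes were compared per kilobase of coding length, on pair sums. The atp9 transcript was the most abundant of the named genes by this measure, at 30.3 CPM per kilobase in the mutant-labelled libraries and 20.4 in WT. The atp1 pair followed at 7.06 CPM per kilobase in the mutant-labelled libraries and 5.36 in WT, then rps12 at 4.53 in the mutant-labelled libraries and 2.98 in WT. The cox3 pair had 3.27 CPM per kilobase in the mutant-labelled libraries and 2.12 in WT. Pairs of ccmFC, rpl5, nad3, cob, atp6 and rps4 lay between 1.04 and 3.07 CPM per kilobase in the mutant-labelled libraries and between 0.763 and 2.71 in WT. Pairs of atp8, rps7 and ccmC had 0.768 to 0.966 CPM per kilobase in the mutant-labelled libraries, lowest among the named genes there, and 0.604 to 1.21 in WT, where only ccmC lay below all the others. Chromosome 2 transcripts can be longer than the coding part, so reads outside it enter these sums. The sums of atp6 and atp1 leave out ATMG01170 and ATMG01200, whose values added up to whole counts with theirs.

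Among rows known by identifier alone, the 5 with the most counts were ATMG00030, described above, ATMG01360, ATMG00160, ATMG01370 and ATMG00520. ATMG00160 had 4.86, 3.40 and 3.88 CPM in the mutant-labelled libraries, against 3.27, 2.81 and 2.70 CPM in WT. Its groups did not overlap, but it was not called (log2 fold change 0.47, SE 0.18; edgeR adjusted p = 0.135). ATMG01370 had 4.32, 3.34 and 4.25 CPM in the mutant-labelled libraries, against 2.54, 3.42 and 2.22 CPM in WT (log2 fold change 0.54, SE 0.19; edgeR adjusted p = 0.111). There WT replicate 2 lay just above the lowest mutant-labelled library. ATMG01360 had 5.80, 3.61 and 3.63 CPM in the mutant-labelled libraries, against 2.68, 4.40 and 2.17 CPM in WT (log2 fold change 0.49, SE 0.26; edgeR adjusted p = 0.304). ATMG00520 had 4.37, 2.74 and 2.44 CPM in the mutant-labelled libraries, against 2.00, 3.65 and 3.79 CPM in WT (log2 fold change 0.02, SE 0.27; edgeR adjusted p = 0.976). In both rows mutant-labelled replicate 1 was highest and the other libraries of the groups were mixed. The 6 negative log2 fold changes lay between -0.31 in ATMG01280, described as similar to subunit II of cytochrome c oxidase, and -0.05 in ATMG00690. The values of ATMG01280, ATMG00160 and AT2G07695 added up to whole counts in every library, so these rows are not separate measurements.

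Summing each of the 42 members with its partner row left 20 pairs above the filter. Of these, 18 had a positive log2 fold change (median 0.44), 4 were higher with no overlap between groups and 1, atp9, was called higher, while of all loci 13.6% did not overlap in that direction and 4.89% were called higher. In the fit with summed pairs 44 members passed the filter, 37 of them positive, with 1 called higher, 0 lower and 7 at an unadjusted p under 0.05.

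The nuclear loci with mitochondrial sequence gave no call on their own. Some of their rows hold the same values as members, among them those of rps12, rpl5 and rps4, so their signs are not a separate observation. Of the 91, 25 passed the filter, 21 of them with a positive log2 fold change and a median of 0.30, and 0 were called higher or lower by edgeR or DESeq2. At an unadjusted p under 0.05 edgeR had 1 of them higher, AT2G07715, with 2.53, 2.60 and 2.32 CPM in the mutant-labelled libraries, against 1.33, 1.73 and 2.05 CPM in WT (log2 fold change 0.53, SE 0.22; edgeR adjusted p = 0.163). Its groups did not overlap. The row of its mitochondrial counterpart ATMG00560 had a log2 fold change of 0.07 (SE 0.30), and their sum one of 0.36 (SE 0.18; edgeR adjusted p = 0.261). The non-whole values of AT2G07715 and ATMG00560 added up to whole counts in every library, so the 2 rows are not separate measurements. In the same stretch of chromosome 2, 2 loci under that share of windows were tested, and both had a negative log2 fold change. AT2G07690 had 16.4 ± 1.51 CPM in the mutant-labelled libraries and 17.9 ± 1.02 CPM in WT, and AT2G07680 had 6.35 ± 1.09 CPM in the mutant-labelled libraries and 7.85 ± 1.22 CPM in WT (SD, n = 3 each), neither called (edgeR adjusted p = 0.499 and 0.288).

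Nuclear genes whose products transcribe, splice, edit, trim or maintain mitochondrial nucleic acids were looked at beside the members. All 37 of the list passed the filter, and edgeR and DESeq2 each called 0 higher and 0 lower. Their log2 fold changes ran from -0.41 to 0.29 with a median of 0.02, and 20 were positive. At an unadjusted p under 0.05 edgeR had 1 higher and 2 lower, 8.11% of the list against 21.8% of all loci, of which 8.95% were called. MORF1, an editing factor, had 26.7, 27.4 and 24.3 CPM in the mutant-labelled libraries, against 21.6, 24.5 and 22.3 CPM in WT (log2 fold change 0.20, SE 0.086; edgeR adjusted p = 0.202). PMH1, a DEAD-box RNA helicase for intron splicing, had 18.1, 13.9 and 15.7 CPM in the mutant-labelled libraries, against 16.9, 20.3 and 20.6 CPM in WT (log2 fold change -0.28, SE 0.11; edgeR adjusted p = 0.173). SLO2, a pentatricopeptide repeat editing protein, had 2.73, 3.23 and 3.11 CPM in the mutant-labelled libraries, against 4.88, 3.93 and 3.23 CPM in WT (log2 fold change -0.41, SE 0.18; edgeR adjusted p = 0.211). The groups overlapped for MORF1 and PMH1 by 1 library of each, and for SLO2 by less than the spread within WT. The mitochondrial RNA polymerase gene RPOTMP, which serves both organelles, had 15.2 ± 2.05 CPM in the mutant-labelled libraries and 17.3 ± 2.00 CPM in WT (SD, n = 3 each; edgeR adjusted p = 0.413), and the 15 splicing factors had a median log2 fold change of 0.04.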

How the data were processed

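RNA was sequenced from 6 silique samples, 3 labelled shp1 shp2 mrpl1 mutant and 3 WT, grouped by genotype and numbered by title. The deposited table holds estimated counts per locus. Per the submitters' processing notes the tools were FastQC 0.11.9, Trimmomatic 0.39, featureCounts 1.6.3, HISAT2 and DESeq2, with no roles given. Genome build, annotation, strand setting and the handling of reads that fit several loci are not given in the sources used here. In each library 2.95% to 3.47% of the deposited estimated counts were not whole (tolerance 1e-09), and all were rounded before testing.

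edgeR 4.0.16 (R 4.3.3) was run on the whole table: TMM scaling, the default filter (minimum count 10, minimum total count 15), robust quasi-likelihood test, genotype as the only term, Benjamini-Hochberg adjustment over all 20827 loci tested, called at an adjusted p under 0.05. The SE is the size of a log2 fold change over the root of its F value. Library totals, 17857873 to 21603816, set the precision, and intervals for shares of a library cover counting error only. Members were matched to genes through protein-match notes in the RefSeq annotation of TAIR10.1, and sequences were compared by 50-base windows and blastn 2.17.0.

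The members and lists were chosen with earlier results of these data known. Values in every library are given for called members, for the 2 members of each functional class with the highest level per length, for the 5 other members with the most counts, and for the nuclear genes and chromosome 2 rows with the most counts or the smallest p. Classes were limited to members the reference annotates. AT2G07689, AT2G07641, AT2G07655, AT2G07718, ATMG00590, ATMG01090, atp6, atp8, rps4 and RPOTMP were added after their values were seen. Alternatives were DESeq2 1.42.0, other scalings and filters, the replicate number as a block and leaving out each library. Summed pairs and leaving out both replicates 1 were chosen after seeing the data.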

Additional observations from a re-analysis of the deposited data

How the results depend on the processing

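The count of 2 members called higher and 0 lower was the same with DESeq2 size factors, library totals, scaling from nuclear genes, the DESeq2 test, no filter and a filter of CPM above 1 in 3 libraries. With the replicate number as a block it was 0 higher, with pairs summed 1, and without single libraries 0 to 2 higher and 0 lower. Samples with the same number did not deviate together (correlations -0.36, -0.19 and -0.12), so the numbers name samples only; under that block 475 loci were higher and 320 lower, against 1018 and 847. Library totals gave 1252 higher and 671 lower, and leaving out single libraries gave 578 to 1534 higher and 426 to 1468 lower. Without both replicates 1, 3191 loci were higher and 3301 lower, and of the 36 members tested 3 were higher and 0 lower. In that setting the members' median was 0.066, and nuclear genes for mitochondrial RNA had 1 higher and 4 lower. The chromosome 2 loci taken by identifier range, which include AT2G07680 and AT2G07690, had 1 lower. Without single libraries the members' median was 0.147 to 0.479, the nuclear list had 0 to 1 lower, and the chromosome 2 loci of that range and the nuclear rows sharing sequence each 0 to 1 higher. The share difference was 167 raw CPM with those nuclear rows added, and 14.0 to 44.1 without single libraries. Relative to the mitochondrial counts alone, log2 fold changes were -0.21 for ATMG00180, -0.13 for ATMG00210, -0.0077 for ATMG01190 and -0.42 for ATMG00520. Without both replicates 1 they were -0.23 for ATMG00210, -0.13 for ATMG00030, -0.53 for ATMG00520 and -0.16 for AT2G07706. Without single libraries ATMG00210 ranged between -0.043 (without mutant-labelled replicate 1) and 0.77, and ATMG00520 between -0.28 (without that library; -0.22 without WT replicate 1) and 0.19. With the block, cox3 (1.29) and atp9 (0.64) were no longer called (edgeR adjusted p = 0.0596 and 0.0575). The causes were not tested. Depth limits these values, as 80 members had at most 55 counts over 6 libraries.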
